A study of Mus musculus with 8 samples.

Results

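C1q macrophages were the periosteal cells that carried transcripts of C1qa, C1qb and C1qc, the 3 chains of the complement component C1q, together with general macrophage transcripts. A cell was counted as a member when its C1qa, C1qb and C1qc molecules summed to at least 5, when Csf1r, Adgre1, Cd68 and Mrc1 summed to at least 2, when the collagen and decorin genes Col1a1, Col1a2, Col3a1 and Dcn made up under 0.5% of its molecules, and when it had under 3 molecules of the B-cell gene Cd79a. These measured counts chose the cells, so the levels of the choosing genes describe the selection and are not findings. The rule found 106 of 6029 cells in the normal diet (ND) library and 98 of 6224 in the high-fat diet (HFD) library, 204 of 12253 in all. Cells entered when they had over 500 and under 8000 detected genes and under 20% mitochondrial counts, which 12253 of the 12950 barcodes met.

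The series compared long-bone periosteum of C57BL/6J male mice at 16 weeks of age. The ND group received normal diet chow and the HFD group high fat diet chow, and no transgene or deletion was named for either. Femurs and tibias of 4 mice per diet were digested with collagenase and dispase, and the released cells were read by droplet sequencing of transcript 3′ ends, in which each captured molecule is counted through a unique molecular identifier (UMI). The series lists 4 samples per diet, but each diet came as 1 matrix with no map from cells to mice and was treated as 1 pooled library. Diet, library and animal therefore cannot be told apart. No test between diets was possible, and every interval given covers counting error only.

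Macrophages are the resident phagocytes of tissues. They clear dead cells and debris through scavenger receptors, read antibody and complement through surface receptors, and are among the main sources of C1q, which starts the classical complement pathway by binding antibody or dying cells. In and around bone they are described in marrow, on bone surfaces and in the periosteum, where some carry the hyaluronan receptor Lyve1 and the folate receptor Folr2, and others carry MHC class II molecules for presenting antigen to T cells. Those populations are also told apart from circulating monocytes, which carry Ly6c2 and the chemokine receptor Ccr2.

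The 3 C1q genes lay side by side on chromosome 4 of the mouse genome, with C1qb at 136880126 to 136886200, C1qc at 136889801 to 136892936 and C1qa at 136895916 to 136898844, a stretch of 18.7 kb (build GRCm38.p6, RefSeq gene table). Promoters are printed because they belong to genes on which the results below turn, the C1q genes with a window in the table, Vsig4, whose level separated a range of members, and Retnla, which was high in other members. Each is the 250 bases before the start that the RefSeq promoter table gives, written 5′ to 3′ on the gene's own strand. For C1qb that start was not found in a transcript, whereas for C1qc, Vsig4 and Retnla it was. For C1qc the start lies inside the gene interval above, so the window from 136892915 overlaps the end of that interval at 136892936. Capitals mark GAGGAA, the core that the macrophage factor PU.1 is known to bind, and TGCTGA, part of the MAF recognition element, or their reverse complements TTCCTC and TCAGCA.
C1qb, chr4:136886201-136886450, minus strand: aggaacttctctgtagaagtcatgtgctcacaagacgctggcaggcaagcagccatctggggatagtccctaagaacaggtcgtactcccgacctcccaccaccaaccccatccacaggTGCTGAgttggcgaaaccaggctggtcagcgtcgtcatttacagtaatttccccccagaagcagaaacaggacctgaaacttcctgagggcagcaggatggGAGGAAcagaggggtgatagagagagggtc
C1qc, chr4:136892915-136893164, minus strand: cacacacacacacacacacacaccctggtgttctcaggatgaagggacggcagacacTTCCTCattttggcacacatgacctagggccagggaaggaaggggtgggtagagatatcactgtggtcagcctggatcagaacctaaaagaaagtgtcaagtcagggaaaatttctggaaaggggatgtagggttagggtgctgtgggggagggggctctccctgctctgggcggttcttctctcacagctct
Vsig4, chrX:96293439-96293688, minus strand: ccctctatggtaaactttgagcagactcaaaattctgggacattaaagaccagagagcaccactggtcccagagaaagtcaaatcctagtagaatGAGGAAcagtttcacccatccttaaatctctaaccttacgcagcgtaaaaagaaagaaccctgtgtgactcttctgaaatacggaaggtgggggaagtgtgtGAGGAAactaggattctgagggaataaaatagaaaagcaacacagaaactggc
Retnla, chr16:48842359-48842608, plus strand: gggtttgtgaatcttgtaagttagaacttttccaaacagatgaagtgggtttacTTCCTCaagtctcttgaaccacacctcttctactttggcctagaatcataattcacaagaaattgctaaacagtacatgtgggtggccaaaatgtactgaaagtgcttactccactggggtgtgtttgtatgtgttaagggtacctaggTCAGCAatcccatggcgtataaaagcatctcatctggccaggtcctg
The C1qb window held GAGGAA starting 30 bases before the start and TGCTGA at 131 bases. The C1qc window held TTCCTC at 193 bases. In Vsig4, GAGGAA stood at 155 and 53 bases before the start, and Retnla held TTCCTC at 196 bases and TCAGCA at 47 bases. Such 6-letter words are common: of 32851 promoter windows of the same length, 7639 (23.3%) held the PU.1 core on either strand, 5282 (16.1%) held the MAF letters and 1208 (3.7%) held both. A match is a description of the letters and not a bound site.

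The label of these cells was checked on their markers. Members had a median of 11174.5 UMIs and 3007 genes in the ND library and 10586 UMIs and 2971 genes in the HFD library, close to the 12660 and 11991 UMIs of monocytes, and a median of 1.64% and 1.62% mitochondrial counts. C1q made up a median of 1.45% of a member's UMIs in the ND library (lowest 0.0643%, highest 3.18%) and 1.49% in the HFD library (lowest 0.0623%, highest 3.39%). Of the C1q UMIs, C1qa took 39.3% and 38.0%, C1qb 32.0% and 34.2%, and C1qc 28.7% and 27.8% in the ND and HFD libraries, on the scale of UMIs, which count molecules and are not divided by transcript length. The balance of the 3 chains therefore differed by little between the libraries. Ms4a7, a membrane gene of macrophages that the rule did not use, stood at 256.9 UMIs per 1000000 (UPM) in ND members and 343.6 UPM in HFD members, against 5.15 and 7.17 UPM in monocytes. Adgre1, which encodes the F4/80 antigen, stood at 207.4 and 242.8 UPM against 36.0 and 35.3 UPM, and Mrc1, the mannose receptor, at 407.4 and 580.2 UPM against 1.29 and 2.92 UPM. Adgre1 and Mrc1 are part of the rule, so of these 3 markers Ms4a7 alone was a check apart from the choice of cells. How long the cells had been in the tissue was not measured.

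Few cells lay near the limits of the rule. Of the members, 4 in the ND library and 4 in the HFD library had 5 to 9 C1q UMIs, with median depths of 2095 and 5070.5 UMIs. Just outside, 3 and 4 cells met every other condition with a C1q sum of 3 or 4. Cells with at least 5 C1q UMIs were left out for Cd79a in 3 ND cells and 0 HFD cells, for collagen in 3 and 0, and for lacking the myeloid genes in 3 and 2. C1qa UMIs were also found in 1.70% and 2.15% of monocytes (ND and HFD) and in 1.50% of HFD B cells at a median depth of 3934 UMIs, against 97.2% and 99.0% of members. In ND B cells 2.78% of cells had a C1qa UMI and the level was 33.7 UPM. The B-cell class had no condition on C1q, and the source of these UMIs was not tested. No barcode of a member occurred in both libraries, although 15 barcodes of the series did.

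**Figure D1:**
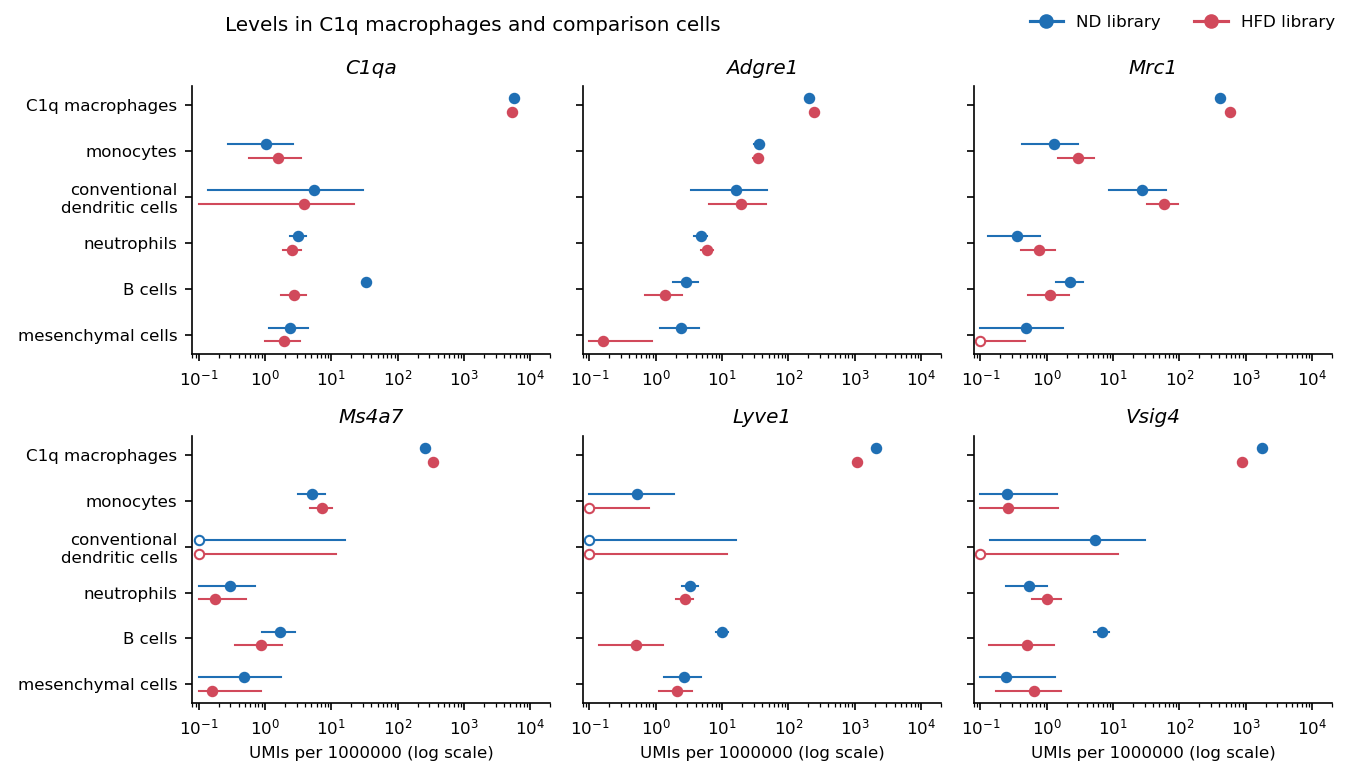
Levels of C1qa, Adgre1, Mrc1, Ms4a7, Lyve1 and Vsig4, in UMIs per 1000000 on a log axis, in C1q macrophages and 5 comparison classes of the ND (blue) and HFD (red) libraries. Points are summed levels, lines are 95% counting intervals, and open points at the left edge mark classes with 0 UMIs. The C1q macrophages lie at the right of every panel.

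The C1q macrophages were similarly frequent in both libraries. They made up 1.76% of kept ND cells (Clopper-Pearson 95% interval 1.44% to 2.12%) and 1.57% of kept HFD cells (1.28% to 1.92%), and the intervals overlapped. The kept cells are those that passed the limits on genes and mitochondrial counts, of which 24.5% and 22.6% were B cells and 35.8% and 34.4% neutrophils. They are more cells than the study shows for the periosteum, and how the study narrowed them was not known here, so the share has a denominator of its own. It describes what the digestion released, since no count of cells in the intact tissue was made.

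Against the 235 and 233 monocytes of the libraries, the C1q macrophages stood highest in the C1q genes, Lyve1, Vsig4, Retnla and Fxyd2. Of 7226 genes with at least 100 UMIs over both classes, 788 (10.9%) were at least 2-fold higher in the C1q macrophages of both libraries and 664 (9.19%) at least 2-fold lower. The classes were themselves chosen on counts, so these values are a description without a test. Lyve1 stood at 2096.2 and 1078 UPM in ND and HFD members against 0.515 and 0 UPM in monocytes. Vsig4, a complement receptor of the immunoglobulin family that binds C3b and iC3b, stood at 1779.6 and 867.6 UPM against 0.257 and 0.266 UPM. Folr2 stood at 875.4 and 747.6 UPM against 0.257 and 0.531 UPM. These 3 genes were nearly absent from monocytes in both libraries.

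Secreted products and transporters followed the same order. Pf4, a chemokine known from platelets that tissue macrophages also express, stood at 2435.8 and 3195.4 UPM against 2.32 and 1.33 UPM. Retnla, a secreted resistin-like protein that interleukin 4 induces in macrophages, stood at 648.8 and 1766.8 UPM against 0.257 and 0.266 UPM, though it was found in only 17.9% and 18.4% of members. Fxyd2, a regulator of the sodium pump, stood at 1396.5 and 1846.6 UPM against 1.03 and 0.266 UPM. Aqp1, the water channel, stood at 437 and 485.5 UPM against 0.257 and 0.266 UPM, and Dab2, an adaptor of endocytosis, at 431.8 and 481.1 UPM against 0.515 and 0.531 UPM. Ltc4s, which makes leukotriene C4, stood at 856.2 and 457.5 UPM against 1.29 and 0 UPM. Cspg4, Slco2b1 and Ctla2b had no UMI in monocytes. For Cspg4, a proteoglycan better known from pericytes, the level of 126.2 and 89.4 UPM was at least 7.35 and 6.81 log2 units above the floor of 3 UMIs per monocyte class.

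The genes furthest below monocytes included those of granule proteins. Elane, neutrophil elastase, stood at 23.6 and 16.7 UPM in ND and HFD members against 1498.7 and 1162.6 UPM in monocytes, Prtn3, proteinase 3, at 14.0 and 12.3 UPM against 1394.9 and 947.7 UPM, and Mpo, myeloperoxidase, at 5.17 and 6.13 UPM against 754.7 and 553 UPM. Dmkn, Plcb1, Phgdh, Gria3, Nrg1 and Met had no UMI in any member, and F10, coagulation factor X, had 0 and 1.75 UPM. Transcripts of granule proteins, which precursors of granulocytes and monocytes make, were thus present in the monocyte class of both libraries.

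**Figure D2:**
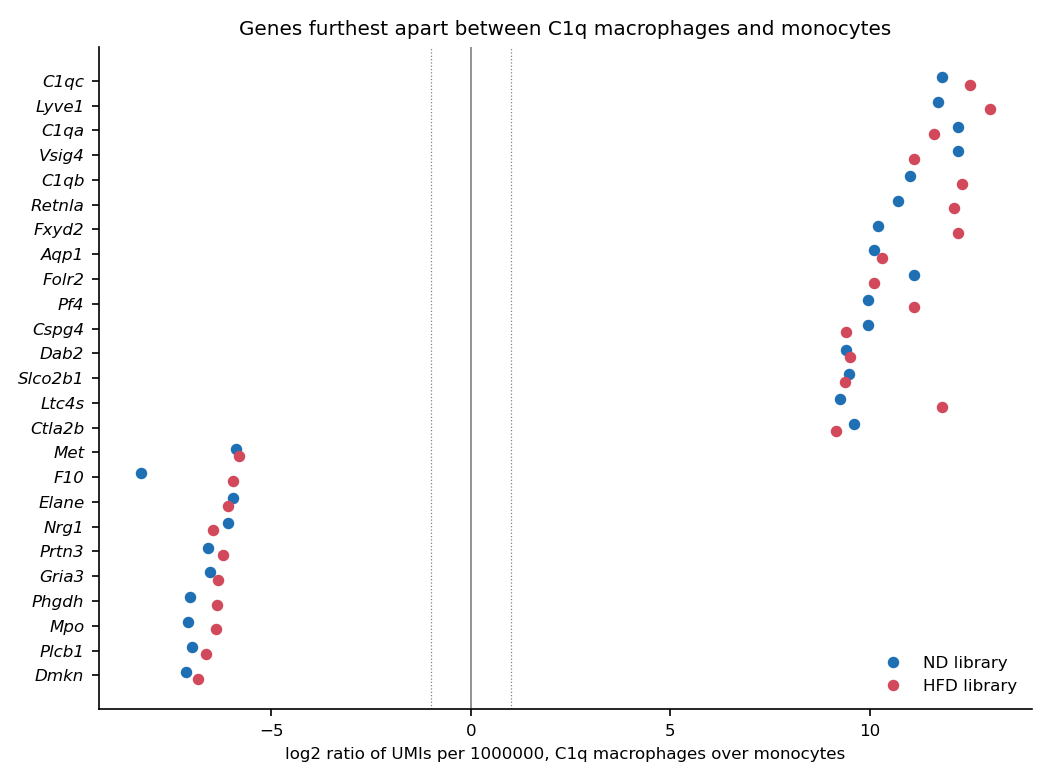
Log2 ratio of UMIs per 1000000, C1q macrophages over monocytes, for the 15 genes furthest above and the 10 furthest below, with the ND library in blue and the HFD library in red and dotted lines at 2-fold. A gene with 0 UMIs in a class is drawn at the ratio obtained after 0.5 UMI was added, which is no bound.

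Gene lists describe the same comparison by function. They are no separate support, since they were written with earlier results known and hold genes named above, such as Lyve1, Folr2, Pf4 and Vsig4. Of the tissue-resident macrophage genes, 14 of 16 with enough UMIs were at least 2-fold higher than in monocytes in both libraries and 0 were lower, against 10.9% and 9.19% of all genes. Scavenger and efferocytosis receptors were higher for 17 of 24 and lower for 2, with Cd36, a receptor for oxidised lipid, at log2 ratios of 8.01 and 6.74, and Cd163, the haemoglobin scavenger receptor, at 9.08 and 6.51. Chemokine ligands were higher for 9 of 13, among them Ccl7, a monocyte attractant (7.91 and 6.28), and Cxcl2, a neutrophil attractant (4.87 and 4.83). Chemoattractant receptors were higher for 9 of 13 and lower for 1, with the complement anaphylatoxin receptors C3ar1 (6.97 and 5.77) and C5ar1 (3.70 and 3.46). Of the complement genes 6 of 10 were higher and 1 lower, led by Vsig4. Lysosome genes were higher for 12 of 29 and lower for 0, with the protease inhibitor Cst3 at 1.41 and 1.47, and genes of iron and heme handling for 7 of 16 and lower for 0, with the heme oxygenase Hmox1 at 1.35 and 1.94.

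Lipid handling was uneven. Of the genes of lipid uptake, storage and efflux, 8 of 27 were higher and 4 lower, against 10.9% and 9.19% of all genes. The phospholipid transfer protein Pltp stood at log2 ratios of 6.93 and 7.41 and the cholesterol exporter Abca1 at 6.12 and 5.33. The same shares of all genes apply to the counts of the lists that follow. Sterol and fatty acid synthesis was higher for 1 of 13 and lower for 0. Macrophage transcription factors were higher for 8 of 19, including Maf (4.14 and 4.49) and Bhlhe41 (5.46 and 5.74), while Spi1, the gene of PU.1, differed by 0.13 and 0.0375. Growth factors and matrix signals were higher for 10 of 20 and lower for 3, led by the metalloproteinase inhibitor Timp2 (5.63 and 5.64). Inflammatory cytokines and NF-kB feedback genes were higher for 9 of 19 and lower for 2. Interferon response genes were the reverse, higher for 1 of 26 and lower for 10, and cell cycle genes were higher for 0 of 28 and lower for 25. The cell cycle list stood at 1336 and 1798.4 UPM in members and 5995.3 and 5862.1 UPM in monocytes. The monocyte rule set no limit on maturity and its class held the granule transcripts named above, so that count is not against mature monocytes alone. Of the osteoclast lineage genes 5 of 8 were higher, but Calcr and Oscar, which mark mature osteoclasts, had 0 UMIs. The summed level of osteoclast markers in members was 118.8 and 104.3 UPM, against 34.2 and 22.8 UPM in monocytes and 126.6 and 106.7 UPM in B cells.

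Receptors that can read nerve-derived signals were examined because the series addressed the innervation of bone. Of the 40 receptor and guidance genes listed, 15 had no UMI in any member. Nrp1, a receptor for semaphorins and vascular endothelial growth factor, stood at 150.6 and 106.9 UPM, Nrp2 at 118.8 and 97.3 UPM and the semaphorin receptor Plxnb2 at 105.6 and 98.2 UPM. Against monocytes 4 of the 9 measured genes were at least 2-fold higher and 2 lower, against 10.9% and 9.19% of all genes. Nrp2 was among the higher ones, at log2 ratios of 4.57 and 3.37.

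The members were not uniform, and their clearest contrast ran between Vsig4 and MHC class II. At least 2 Vsig4 UMIs were found in 42 ND members (39.6%, 30.3% to 49.6%) and 38 HFD members (38.8%, 29.1% to 49.2%), against a Vsig4 UMI in 0.407% and 0.285% of B cells at median depths of 3990.5 and 3934 UMIs. The class II genes H2-Aa, H2-Ab1 and H2-Eb1 with the invariant chain Cd74 made up at least 0.5% of UMIs in 22 ND members (20.8%, 13.5% to 29.7%) and 19 HFD members (19.4%, 12.1% to 28.6%). No member of either library was in both ranges, and 42 and 41 members were in neither. These ranges were drawn after the values had been seen and cut a continuous measure, so the absence of overlap is a description. Above the class II limit the median share was 4.78% in the ND library and 5.39% in the HFD library, whereas the other members had medians of 0.00618% and 0.00845%. Few cells were close to the limit, with 2 and 5 members between 0.25% and 0.5% and 2 and 2 between 0.5% and 1%. Among Vsig4 cells the highest class II share was 0.0644% in the ND library and 0.340% in the HFD library.

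**Figure D3:**
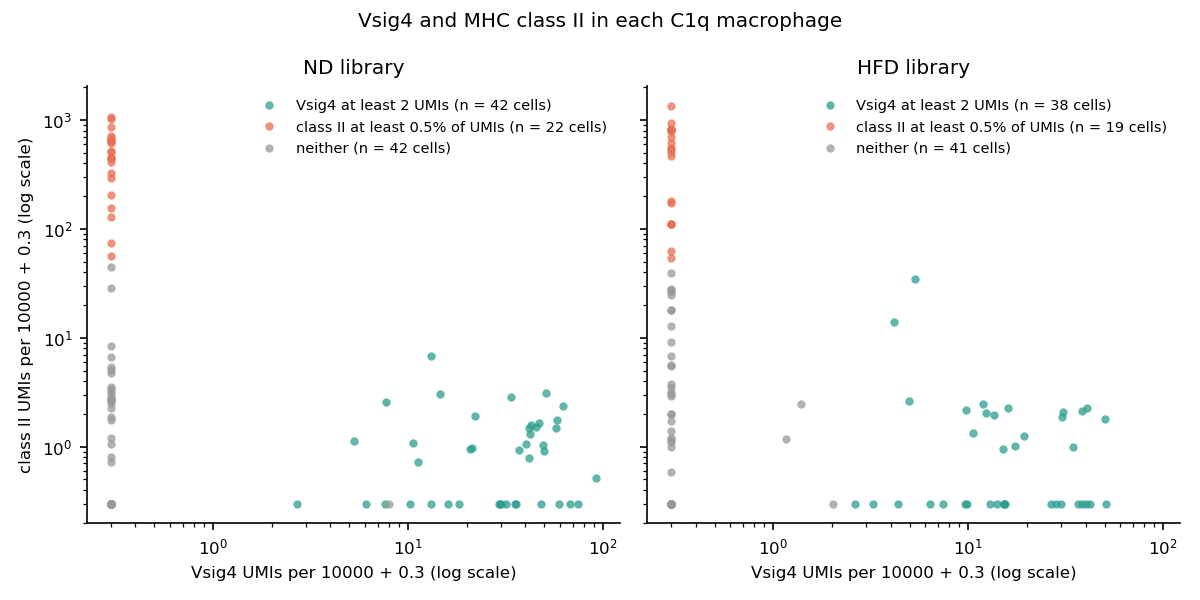
Each point is a C1q macrophage, with Vsig4 UMIs per 10000 on the horizontal axis and class II UMIs (H2-Aa, H2-Ab1, H2-Eb1 and Cd74) per 10000 on the vertical axis, both on log scales after 0.3 was added. The 42 ND and 38 HFD cells with Vsig4 (green) lie low on the class II axis, and the 22 ND and 19 HFD class II cells (orange) all lie at 0 Vsig4.

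C1q, which every member carried by the rule, made up a median of 1.74% and 1.61% of UMIs in the Vsig4 cells of the ND and HFD libraries and 0.582% and 1.03% in the class II cells, with lowest values of 0.605%, 0.252%, 0.0643% and 0.0636% in that order. Ms4a7, which the rule did not use, stood at 257.8 and 308.1 UPM in Vsig4 cells and 173.7 and 384.1 UPM in class II cells, so neither range was higher in both libraries. The dendritic cell receptor Flt3 had 2 and 1 UMIs over all ND and HFD members and Zbtb46, a factor of conventional dendritic cells, 1 and 1. These genes were near 0 in the class II cells too. Cd209a took 76.3% of the few UMIs of the conventional dendritic list, which stood at 77.2 and 91.5 UPM in class II cells against 5.75 and 4.61 UPM in the other members.

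The Vsig4 cells all had at least 2 UMIs of Lyve1, Folr2 or Timd4, and they made up 52.5% and 52.1% of the 80 ND and 73 HFD members with those genes. Timd4, a receptor for the phosphatidylserine of dying cells, had at least 2 UMIs in 27 and 22 members. The genes furthest above the other members in Vsig4 cells were Ecscr, Pls3, Cald1, Sparc, Mxra8, Pcolce2, Ccn1 and Slc7a2. Sparc, a collagen-binding glycoprotein, stood at 1645.8 UPM in ND Vsig4 cells against 291.3 UPM in the other ND members, and at 805.2 against 139.3 UPM in the HFD library. Pls3, an actin-bundling protein, stood at 129.7 against 19.8 UPM and 78.7 against 11.5 UPM. Pcolce2, which enhances procollagen processing, stood at 114.2 against 22.6 UPM and 42.7 against 4.31 UPM, in 11 and 6 Vsig4 cells. Slc7a2, a transporter of arginine, stood at 118.9 against 33.9 UPM and 38.2 against 5.74 UPM. Ecscr, Cald1, Mxra8 and Ccn1 were each found in 6 to 17 Vsig4 cells of a library.

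Sparc is best known from mesenchymal cells, so its partners were read beside it. Members had 1272 ND and 455 HFD UMIs of Sparc but 5 and 40 UMIs of Col1a1 and Col1a2 together, which the rule capped. The source of the Sparc UMIs was not tested. In the summed mesenchymal list Sparc took 91.0% of members' UMIs, and no gene of the list was at 0. Sparc had at least 2 UMIs in 40 ND and 22 HFD members.

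The class II cells stood furthest above the other members in Cd207, Clec4b1, Mmp12, H2-DMb1, Mgl2, H2-DMa, Plbd1 and Ltb4r1. Mgl2, a galactose-binding lectin of macrophages and dendritic cells, stood at 784.9 against 32.6 UPM in the ND library and 826.8 against 47.3 UPM in the HFD library, in 14 class II cells of each. Clec4b1 stood at 205.9 against 2.87 UPM and 289 against 3.46 UPM, in 16 and 8 cells. The peptide loading genes H2-DMb1 (849.3 against 23.0 and 746.3 against 19.6 UPM) and H2-DMa (572.6 against 35.4 and 757.3 against 39.2 UPM) followed the class II genes that drew the range. Plbd1 and Ltb4r1, a leukotriene B4 receptor, were higher in both libraries, in 15 and 11 and in 9 and 6 cells. Mmp12 was found in 4 and 3 class II cells, and Cd207 in a lone class II cell of each library. Vsig4, S100b, Vcan and Tpbgl had 0 UMIs in class II cells of either library. Chemokine ligands as a list stood at 15511.8 against 8807 UPM in the ND library and 16469.5 against 8676.1 UPM in the HFD library. The cell cycle list stood at 3149.3 against 796 UPM and 2780.3 against 1489 UPM. The neutrophil list stood at 18410.2 against 10126 UPM in the ND library and 889 against 17658.8 UPM in the HFD library, with 1 ND class II cell high in S100a8 and S100a9. Without the cells high in these genes it stood at 839.5 against 727.5 and 889 against 1042 UPM, and the chemokine ligands at 16082.7 against 9074.2 and 16469.5 against 8842.2 UPM.

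Ccr2, which brings monocytes into tissue, had at least 2 UMIs in 21 ND members (19.8%, 12.7% to 28.7%) and 16 HFD members (16.3%, 9.63% to 25.2%). Of the class II cells, 16 of 22 and 9 of 19 were among them, which was 76.2% and 56.2% of the Ccr2 cells, whereas 1 Vsig4 cell in each library was. Genes higher in Ccr2 cells included Clec4b1, H2-DMb1, Ltb4r1 and Fcrls, an Fc receptor-like gene (143.3 against 13.5 UPM and 407.1 against 49.4 UPM), and Colec12, a scavenger receptor, was lower (3.11 against 101.6 UPM and 3.99 against 82.0 UPM). The Ccr2 count rested on few molecules, and after each cell had been thinned to 2000 UMIs the shares were 3.00% and 8.33%.

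Other ranges overlapped widely. Trem2, Gpnmb or Spp1, genes of lipid-associated macrophages, reached 2 UMIs in 90 ND members (84.9%) and 75 HFD members (76.5%), almost entirely through Trem2, with 86 and 72 members. Members below that range were shallower, with medians of 4651.5 and 6197 UMIs against 12489.5 and 11685 UMIs inside it. Retnla was higher in the members outside it, at 5836.6 against 248.1 UPM in the ND library and 9471.1 against 275.1 UPM in the HFD library, and so were the lectins Cd209f and Cd209g. A pair of cells held 324 and 178 of the 879 Retnla UMIs in the ND library and 1100 and 426 of the 2016 in the HFD library. The neutrophil list was also higher outside the range, at 57717.8 against 8497.5 UPM in the ND library and 76503.3 against 1469.8 UPM in the HFD library. Without the 6 cells high in S100a8 and S100a9 it stood at 1717.9 against 694.5 UPM and 1288.4 against 958.7 UPM, and Retnla at 3366.5 against 248.5 UPM and 11702 against 278.3 UPM. Mki67 or Top2a, proliferation genes, reached 2 UMIs in 8 and 6 members. Of these, 4 of 8 and 5 of 6 also had Lyve1, Folr2 or Timd4, against 75.5% and 74.5% of all members. Ccr2 reached 2 UMIs in 5 of 8 and 1 of 6, against 19.8% and 16.3% of all members. The cells with Mki67 or Top2a had Pclaf at 237.4 against 1.70 UPM and 529.9 against 1.95 UPM, with Birc5, Ube2c, Stmn1 and histone genes also higher. The neutrophil list stood at 621.7 UPM in these ND cells against 13740.1 UPM in the other ND members, but at 124141.2 against 1467.2 UPM in the HFD library, where 14057 of its UMIs lay in the 6 cells with Mki67 or Top2a. One of those HFD cells was high in S100a8 and S100a9, and without such cells the list stood at 1154.6 against 992.2 UPM and Pclaf at 359.2 against 1.97 UPM in the HFD library. Pclaf then had 42 UMIs in the ND class II cells and 2 in the other ND members, and 28 and 2 in the HFD library. Vcam1, which marks the macrophages of erythroblastic islands, reached 2 UMIs in 1 and 2 members.

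Some members carried many neutrophil transcripts. S100a8 and S100a9, abundant proteins of neutrophils, made up at least 1% of UMIs in 4 ND and 2 HFD members, and those cells held 94.5% and 92.9% of all S100a8 and S100a9 UMIs of the members. Their median depths were 21997.5 and 23076.5 UMIs. In the median member these genes took 0.0577% and 0.0744% of UMIs, below the 0.103% and 0.137% of B cells. The neutrophil list stood at 12026.8 and 13641.3 UPM in members, with S100a9 taking 39.0% of it and no gene at 0. Several of the values that rest on these cells are also given without them. Doublet scoring with Scrublet called 0.149% of ND and 0.370% of HFD cells and no member, a number so low that its calls were not relied on. Scores in the top 5% of their library were held by 15 of 106 ND and 6 of 98 HFD members, 2 and 1 of them high in S100a8 and S100a9.

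Between the diets, few genes of the C1q macrophages differed by 2-fold, and the median log2 ratio was near 0. Of 5390 genes with at least 50 UMIs over the members, 58 (1.08%) were at least 2-fold higher in the HFD library and 58 (1.08%) at least 2-fold lower, and the median log2 ratio was 0.00875. The C1q genes, which chose the cells and so are given as a description, stood at 5591.9 and 5384.7 UPM for C1qa, 4546 and 4843.9 UPM for C1qb and 4077.3 and 3943 UPM for C1qc. Of all 5390 genes, 2758 had a ratio above 0 and 2632 below 0. Among genes with at least 100 UMIs, the furthest ratios, from Spp1 at 2.66 to Mmp8 at -4.89, included genes held by a few cells, and Vsig4 and Lyve1 are described ahead of them because they marked the ranges above.

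Vsig4 had 2411 UMIs (1779.6 UPM) in ND members and 990 UMIs (867.6 UPM) in HFD members, a log2 ratio of -1.04 (-1.14 to -0.929), while the number of cells with at least 2 UMIs was 42 and 38. In those cells Vsig4 took a median of 34.4 UMIs per 10000 in the ND library (quartiles 14.6 and 47.6) and 14.9 in the HFD library (9.47 and 30.1), so the quartile ranges of the libraries overlapped. The highest cells had 419 and 162 UMIs in the ND library and 124 and 101 UMIs in the HFD library. Lyve1 had 2840 UMIs (2096.2 UPM) and 1230 UMIs (1078 UPM), a log2 ratio of -0.96, with at least 2 UMIs in 77 and then 59 members and medians of 23.2 and 17.8 UMIs per 10000. With each cell given equal weight the log2 ratios were -0.78 for Vsig4 and -0.81 for Lyve1. The same ratios without the 6 cells high in S100a8 and S100a9 were -1.06 and -0.94. Over all other kept cells, where both genes were scarce, the ratios were -1.75 for Vsig4 and -0.35 for Lyve1.

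Within the Vsig4 cells the lower levels were not shared by all their genes. Sparc stood at 1645.8 UPM in ND and 805.2 UPM in HFD Vsig4 cells, a log2 ratio of -1.03 (-1.21 to -0.857). S100b, a calcium-binding protein, was at -1.16 (-1.59 to -0.762), and Slc7a2, Ass1 and Pcolce2 were at -1.60, -1.51 and -1.39, with 77 and 17, 76 and 18, and 74 and 19 UMIs. Folr2 differed by -0.0145 (-0.179 to 0.148). Fxyd2 was higher in the HFD library, at 1344.7 and 2870 UPM, a log2 ratio of 1.09 (0.968 to 1.22), and so was Aqp1, at 444.6 and 701.8 UPM, a log2 ratio of 0.66 (0.423 to 0.894). In the cells of neither range Fxyd2 was lower in the HFD library, at 2291.7 and 1791.6 UPM. In class II cells Fxyd2 stood at 363.5 and 267.1 UPM. Without the ND class II cell high in S100a8 and S100a9 it was at 283.3 and 267.1 UPM, a log2 ratio of -0.0843 (-0.562 to 0.389). Over all members it stood at 1396.5 and 1846.6 UPM (0.40). Other lists differed in the same cells, the monocyte list from 2101.2 UPM in ND to 663.5 UPM in HFD Vsig4 cells, the neutrophil list from 8279.7 to 1043.7 UPM and the immediate-early list from 23338.6 to 28855.6 UPM. Of the cells high in S100a8 and S100a9, 1 was among the ND and 0 among the HFD Vsig4 cells, and without it the ratios were -1.05 for Sparc, -1.22 for S100b, 1.05 for Fxyd2 and -0.0419 for Folr2, while the neutrophil list stood at 652.3 and 1043.7 UPM and the monocyte list at 2016.3 and 663.5 UPM. Over all members Fn1 took 57.7% of the monocyte list. Vcan, also on that list, had 234 ND UMIs in the members with Lyve1, Folr2 or Timd4 and 1 in the others, and 103 and 0 in the HFD library. Ccr2 stood at 4.63 and 15.7 UPM in ND and HFD Vsig4 cells. The list level is therefore no measure of monocyte identity in these cells, and the part of its genes in the ratios was not tested.

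Over all members, the lowest ratios that stayed past 2-fold without the top cell and without the 6 cells high in S100a8 and S100a9 included those of Slc7a2, Ass1, Pcolce2, Ccl3 and St3gal5. Slc7a2 had 101 UMIs in 27 ND cells and 21 UMIs in 10 HFD cells, a log2 ratio of -1.99 (-2.77 to -1.33). Ass1, the argininosuccinate synthase that renews arginine from citrulline, had 106 UMIs in 40 cells and 25 UMIs in 14 cells, a log2 ratio of -1.81 (-2.53 to -1.20). Its ND UMIs were spread widely, with at most 7 in a cell. St3gal5, which makes the ganglioside GM3, had 123 UMIs in 55 cells and 38 UMIs in 25 cells (-1.43, -2.01 to -0.912). Pcolce2 had 90 and 22 UMIs (-1.76). With each cell thinned to 2000 UMIs, Ass1 moved to -1.16 and Pcolce2 to -1.10, while Slc7a2 was at -2.57, Ccl3 at -1.67 and St3gal5 at -1.53. Over all other kept cells Slc7a2 was at 0.80, Ass1 at -0.26, St3gal5 at 0.22 and Pcolce2 at 0.37, so the 2-fold differences of these genes were not seen there. Those cells are a mixture, with mesenchymal cells at 6.10% of ND and 9.75% of HFD kept cells. Here and elsewhere, ratios over them can therefore mix cell make-up with level. Fn1, the gene of fibronectin, had 1365 and 472 UMIs (-1.28), with 358 of the ND UMIs in a lone cell. Bmp2, a bone-inducing growth factor, had 92 UMIs in 35 cells and 33 in 17 (-1.22), and Thbs1, thrombospondin, 80 in 11 cells and 12 in 10 (-2.44). Growth factors and matrix signals as a list stood at 7150.1 and 5986.7 UPM (-0.256, -0.301 to -0.211), with 14 of 19 genes lower, 4 of them by 2-fold, and 1 (Spp1) higher by 2-fold, against 1.08% of all genes on each side.

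Chemokines and inflammatory genes split by gene. Ccl3, an attractant of monocytes, had 320 UMIs in 43 ND cells and 96 UMIs in 27 HFD cells, a log2 ratio of -1.48 (-1.83 to -1.16). Ccl3 was lower in the HFD library in other cells as well, at -2.16 in monocytes (1767 and 382 UMIs) and -0.78 over all other kept cells. Its receptor Ccr1 had 265 UMIs in 62 cells and 110 UMIs in 38 cells (-1.02). Clec4e, a receptor for mycobacterial glycolipid, had 134 and 33 UMIs (-1.76, or -1.29 without the cells high in S100a8 and S100a9). On the higher side Ccl8 had 2 UMIs in 1 ND cell and 82 UMIs in 9 HFD cells, of which 54 were in a lone cell. Ccl12 had 21 UMIs in 4 cells and 70 in 9, with 50 in a lone HFD cell, and Cxcl3 had 4 in 2 cells and 46 in 7, with 33 in a lone HFD cell. Il1b, the gene of interleukin 1 beta, had 140 UMIs in 15 cells and 329 UMIs in 19 cells (1.48, 1.19 to 1.78), and 0.64 with each cell given equal weight. Over all other kept cells Il1b was at -0.23. The chemokine list as a whole differed by 0.0273 (-0.00794 to 0.0626), with 11 of 16 genes higher. Inflammatory and NF-kB feedback genes stood at 5374.2 and 4627.4 UPM (-0.216, -0.267 to -0.165), led by the inhibitor Nfkbia at 1927.2 and 1354.9 UPM, with 11 of 19 genes lower, and differed by -0.0749 without Nfkbia.

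Some of the genes higher in the HFD library sat in few cells, and others were spread more widely. Retnla had 879 UMIs in 19 ND cells and 2016 UMIs in 18 HFD cells, a log2 ratio of 1.44 (1.33 to 1.56). A lone HFD cell held 1100 of them, the next held 426 and the highest ND cell held 324, and without the top cell of each library the ratio was 0.97. In class II cells Retnla stood at 2496.3 UPM in the ND and 5374 UPM in the HFD library. Without the cells high in S100a8 and S100a9 these were 1581 and 5374 UPM (1.76, 1.61 to 1.92). The members outside the class II range then stood at 89.7 and 665.8 UPM. Of the 1469 UMIs of the HFD class II cells, 1100 lay in the highest cell. Of the 547 UMIs of the HFD members outside, 426 lay in the next. The setting lowered the ND class II level and left the HFD one unchanged, so the wider difference does not show that it is robust. Among the cells with at least 2 UMIs, 12 in ND and 14 in HFD, the median level was 27.8 and 28.4 UMIs per 10000, so the cells that carried Retnla overlapped between the libraries. Cd209f, a C-type lectin, had 27 UMIs in 3 cells and 144 UMIs in 8 cells (2.64, 2.06 to 3.31), with at most 34 in an HFD cell. Fcrls had 60 UMIs in 15 cells and 146 in 23 (1.52, 1.09 to 1.99), and Clec10a, a lectin of the same family as Mgl2, 26 in 19 and 72 in 15 (1.70). Pla2g7, which inactivates platelet-activating factor, had 47 UMIs in 29 cells and 88 UMIs in 26 cells (1.15, 0.626 to 1.70), and Gngt2, a G protein subunit, 32 and 71 UMIs (1.39). Over all other kept cells Retnla was at 3.91 and Fcrls at 2.19, higher in the HFD library too, and Cd209f was at -0.78, Pla2g7 at 0.19 and Gngt2 at 0.16. In monocytes Pla2g7 was at 1.39 (184 and 467 UMIs) and Gngt2 at 0.66 (342 and 524 UMIs), also higher in the HFD library.

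Spp1, the gene of osteopontin, had the highest ratio among genes with at least 100 UMIs, with 56 UMIs in 14 ND cells and 300 UMIs in 24 HFD cells (2.66, 2.25 to 3.11). A lone HFD cell held 204 of the 300, or 68.0%. Over all other kept cells Spp1 was at 2.19. The ratio was 1.52 without the top cell of each library and 0.35 without the cells in the top 5% of doublet scores. Gpnmb (14 and 67 UMIs, 2.47) and Vcam1 (7 and 86 UMIs, 3.78) likewise had 63 and 82 of their HFD UMIs in a lone cell. Of the osteoclast genes Acp5 had 77 and 30 UMIs (-1.10), with 44 in a lone ND cell, and Ctsk 32 and 63 UMIs (1.21).

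Other genes among the extremes depended on the 6 members high in S100a8 and S100a9. Mmp8 had 123 and 3 UMIs (-4.89) and Retnlg 1071 and 84 UMIs (-3.42), but 0.70 and 0.67 without those cells. Chil3 (72 and 262 UMIs, 2.10) and Camp (958 and 1816 UMIs, 1.17) had 94.7% and 95.8% of their HFD UMIs in a lone cell and turned to -1.22 and -2.59 without the top cell of each library. Slpi (-1.39), Ifitm6 (-1.91) and Hist1h1b (1.11) were at 0.07, -0.59 and 0.0118 without the 6 cells. None of these 7 genes kept a 2-fold difference once those cells were left out, except Chil3, which did so in the opposite direction at -1.23.

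**Figure D4:**
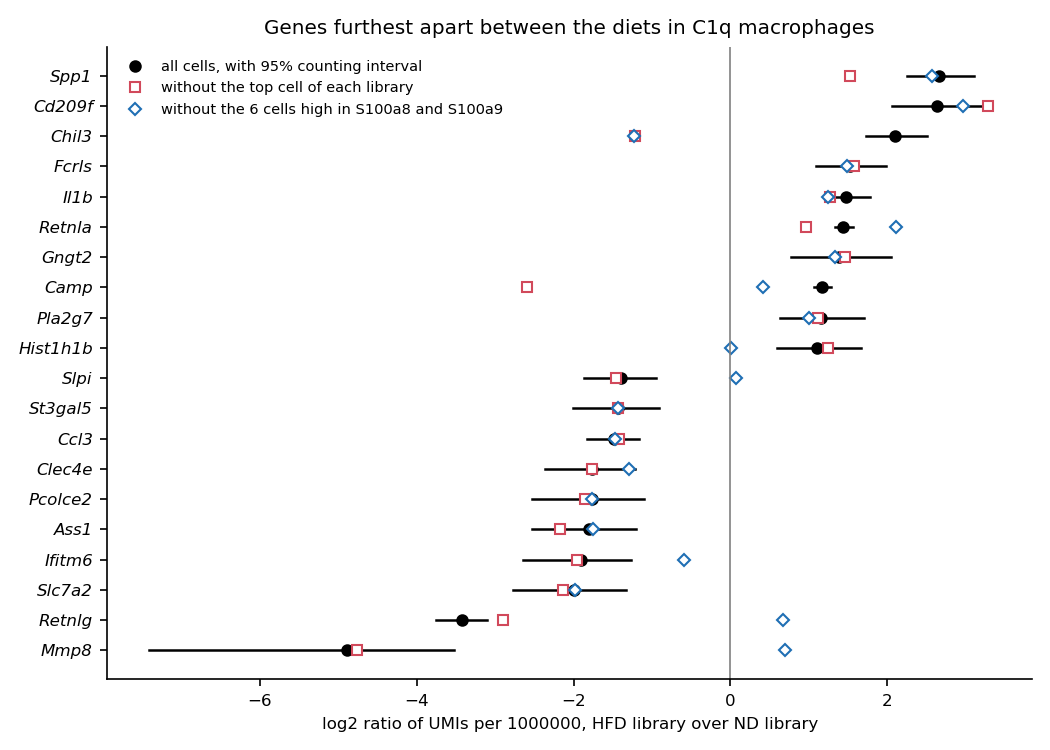
Log2 ratio of UMIs per 1000000 in C1q macrophages, HFD library over ND library, for the 10 highest and 10 lowest genes with at least 100 UMIs. Black points with lines are all members with 95% counting intervals, open squares leave out the top cell of each library for that gene, and open diamonds leave out the 6 members high in S100a8 and S100a9. Slc7a2, Ass1, St3gal5, Ccl3 and Pcolce2 keep their place, while Mmp8, Retnlg, Chil3 and Camp move.

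By function, the summed lists differed by little. For comparison with the counts below, 2632 of all 5390 genes had a ratio below 0, and 1.08% were past 2-fold on each side. Complement genes stood at 4240.5 UPM in ND and 3099 UPM in HFD members, a log2 ratio of -0.452 (-0.513 to -0.392), with Vsig4 taking 36.6% of the list, 6 of 9 genes lower and Vsig4 the only gene past 2-fold. The ratio of the list was smaller with equal weight per cell, at -0.277, and with each cell thinned to 2000 UMIs, at -0.284, and it was -0.141 without Vsig4. Scavenger and efferocytosis receptors stood at 7367.8 and 6218.1 UPM (-0.245, -0.289 to -0.201), with Lyve1 taking 23.8% of the list, 13 of 23 genes lower and Cd14 at 1130.8 and 1253.3 UPM. Without Lyve1 that list differed by -0.0364. Glycolysis genes with insulin and IGF receptors were lower for 12 of 14 genes with none past 2-fold, summing to 3970.3 and 3247.1 UPM (-0.290, -0.351 to -0.229), led by Gapdh at 1386.9 and 1042 UPM. With each cell given equal weight that list differed by -0.155. Sterol and fatty acid synthesis was lower for 7 of 9 genes (-0.224, -0.383 to -0.0669), with the regulator Srebf2 at 53.9 and 28.9 UPM.

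Cell cycle genes were higher for 12 of 13 genes, 1 of them (Birc5, 19 and 60 UMIs) by 2-fold. Of all 5390 genes, 2758 were above 0 and 1.08% were 2-fold higher. The cell cycle list had a median log2 ratio of 0.57 and a summed level of 1336 and 1798.4 UPM (0.429, 0.337 to 0.521). The number of members with Mki67 or Top2a was 8 and 6, and without the cells high in S100a8 and S100a9 the summed ratio was 0.175. MHC class II genes were higher for 5 of 6, at 10492.3 and 12307.4 UPM (0.230, 0.196 to 0.264), but the ratio was -0.0328 with each cell given equal weight and the share of class II cells was 20.8% and 19.4%. Fc receptors were higher for 5 of 5, at 3472.8 and 3710.7 UPM (0.0956, 0.0353 to 0.156). Tissue-resident genes were higher for 11 of 18, of which Ccl8, Cd209f and Clec10a passed 2-fold, against 1.08% of all genes. The list summed to 10111.4 and 10603.7 UPM (0.0686, or -0.0511 without Pf4). Pf4 and Selenop, the selenium carrier, were higher and Lyve1 was lower in the HFD library, at log2 ratios of 0.39, 0.41 and -0.96.

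Lysosome genes (-0.0657), iron and heme genes (-0.0290), lipid-associated genes (-0.0605), lipid uptake and efflux (-0.104), transcription factors (-0.0589) and interferon response (0.112) differed by at most 0.112 log2 units in their sums. Of these 6 lists, genes past 2-fold were Spp1 and Gpnmb among the lipid-associated genes and Trim30a (30 and 57 UMIs) in the interferon response. Over all genes 1.08% were past 2-fold on each side. Apoe, the main apolipoprotein of macrophages, stood at 2872.7 and 2472.3 UPM and the ferritin gene Fth1 at 12819.5 and 12203.1 UPM. Chemoattractant receptors differed by -0.155, osteoclast lineage genes by -0.130 and erythroblastic island genes by 0.208, with Vcam1 the only member of that last list past 2-fold. None of these directions held under every setting. With equal weight per cell the receptors stood at 0.00192 and the osteoclast lineage genes at 0.0182, and the island genes stood at -0.0220 with each cell thinned to 2000 UMIs and at -0.109 without the top cell of each gene. Nerve signal receptors were lower for 7 of 8 genes with none past 2-fold and summed to 687.9 and 624.9 UPM (-0.138, -0.281 to 0.00358), an interval that included 0.

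Genes that respond to tissue dissociation differed little in sum between the diets over all C1q macrophages, but not within their ranges. The immediate-early list stood at 25696.6 and 25270.3 UPM in ND and HFD members, with Dusp2 (45 and 17 UMIs) the only gene past 2-fold. In Vsig4 cells the list stood at 23338.6 and 28855.6 UPM and in class II cells at 31567.2 and 25827.4 UPM, in opposite directions. Without the cells high in S100a8 and S100a9 the ND values were 23615.8 and 31584.8 UPM. In monocytes the same list stood at 28470.2 and 16198.8 UPM, and in B cells at 32311.7 and 20891.4 UPM. Chemokine ligands stood at 10345.4 and 10543.2 UPM in members and at 2885.4 and 1589.4 UPM in monocytes. The difference between the classes was not tested, and its part in the diet ratios was not tested.

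**Figure D5:**
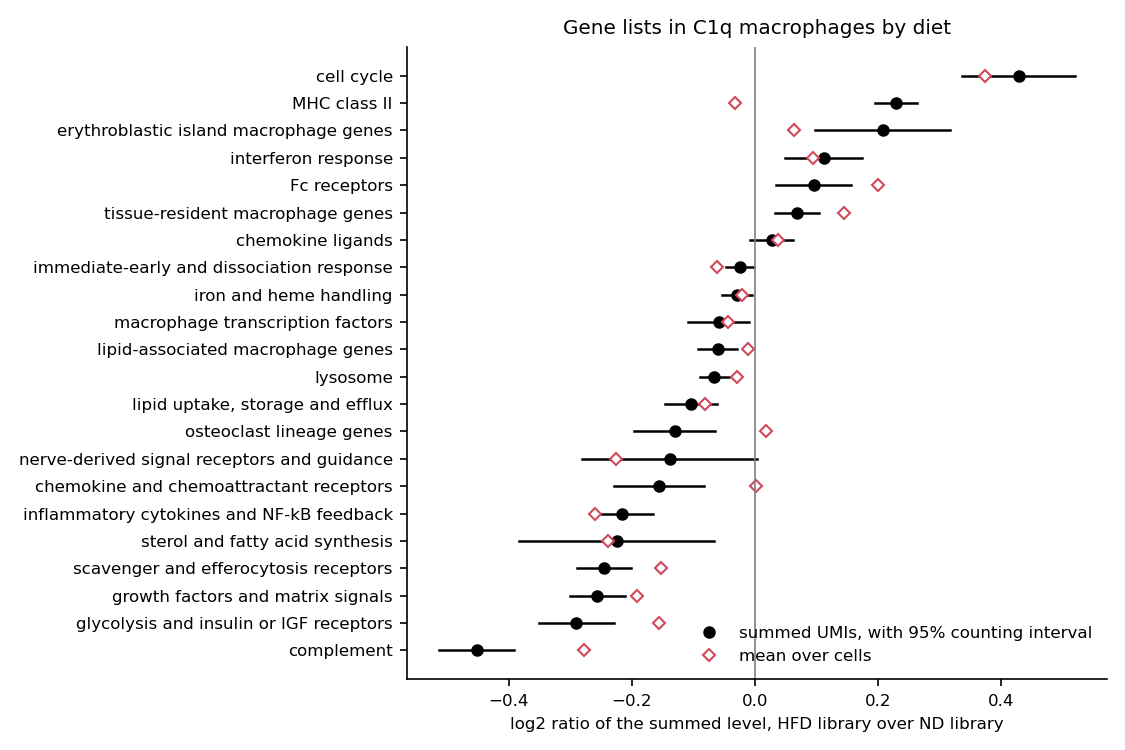
Log2 ratio of the summed level of 22 gene lists in C1q macrophages, HFD library over ND library. Black points with lines are summed UMIs with 95% counting intervals, and open diamonds give each cell equal weight. Complement lies lowest at -0.452 and cell cycle highest at 0.429, with complement at -0.277 and cell cycle at 0.375 when each cell has equal weight, and complement at -0.141 without Vsig4. MHC class II, the chemoattractant receptors and the osteoclast lineage genes change sign between the weightings.

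Markers of other cell types were read in the members beside these ratios. The monocyte list stood at 1510.2 and 998.2 UPM (6126.3 and 6952.7 UPM in monocytes), with Fn1 taking 57.7% of it, Ly6c2 at 60 and 20 UMIs, Plac8 at 49 and 6 UMIs and no gene at 0. The mesenchymal list stood at 958.1 and 525 UPM through Sparc, with Dcn at 15 and 62 UMIs. The B-cell list stood at 87.1 and 153.4 UPM, with Ighm taking 86.7% and 1 of 8 genes at 0, against 12575.5 and 15744.5 UPM in B cells, and the plasma cell list at 144.7 and 194.6 UPM, with Xbp1 taking 70.6%. The platelet list was Pf4 for 99.9% of its UMIs. The erythroid list stood at 94.5 and 126.2 UPM, led by Hbb-bs, and the plasmacytoid dendritic list at 160.9 and 140.2 UPM, with Bst2 taking 91.0%. T-cell (9.60 and 19.3 UPM, led by Cd3d), NK-cell (19.2 and 12.3 UPM, led by Nkg7), endothelial (7.38 and 5.26 UPM, led by Flt1), mural (2.21 and 5.26 UPM, led by Acta2) and basophil and mast cell (3.69 and 5.26 UPM, led by Mcpt8) lists were near 0. The part of the genes of the monocyte, neutrophil and mesenchymal lists in the diet ratios was not tested beyond the values without the 6 cells.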

How the data were processed

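The authors deposited 1 filtered 10x matrix of UMI counts per diet, made by their methods and the submitters' processing notes with Cell Ranger 6.0.1 and mm10. The counts were deposited without normalization and were used as such. Each matrix names no mouse and was taken to pool the mice of its diet. The ND library held 48558889 UMIs and the HFD library 49940976.

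The cell limits on genes and mitochondrial counts were those of the study's methods. UMIs were summed over the members of each library (1354807 ND and 1141021 HFD) and given per 1000000 UMIs with exact Poisson 95% intervals. Shares carry exact Clopper-Pearson intervals. Log2 ratios had 0.5 UMI added, and ratios between diets carry exact intervals from the HFD share of the UMIs. These intervals treat the UMIs of a pooled library as independent, so they cover counting error only and no spread between cells or mice. A count of 0 was given a floor of 3 UMIs per class. The sums were checked on simulated data. With 1 library per diet no test was made, and a gene was called at a 2-fold ratio.

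Monocytes had Ly6c2 of at least 3 UMIs with Ccr2 and Csf1r and without Flt3, Siglech or C1q of 5 UMIs. Other classes were B cells (Cd79a of at least 3, Cd79b), neutrophils (S100a8 and S100a9 of at least 1% of UMIs, no Csf1r), mesenchymal cells (collagen of at least 1% of UMIs) and conventional dendritic cells (class II with Flt3 and a second dendritic gene).

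Genes were named by rule. Against monocytes these were the 15 highest and 10 lowest with at least 100 UMIs by the library nearer to 0, and between diets the 10 highest and 10 lowest with at least 100 UMIs. In each of the 22 lists they were the 3 most abundant and those past 2-fold, and in each range of members the 8 furthest. Gm, Rik, mitochondrial and ribosomal protein genes were left out of these rankings. The members and lists were chosen with earlier results of these data known. The Vsig4 and class II ranges, and the genes read inside them by diet, were chosen after the values were seen, as were Abca1, Maf, Bhlhe41, Ccl7, Cd36, Timd4, Srebf2, Flt3, Zbtb46, Calcr, Oscar and the lowest genes of each range. Of the list genes, Aldoa and Clec7a were not analysed here, and some genes that the rule names are not reported here.

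Promoter windows and gene positions came from RefSeq tables of GRCm38.p6. Of the 15 genes named above monocytes, 12 had a window.

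Alternatives were gene minimums of 20 and 200 UMIs, C1q minimums of 3 and 10, other cell limits (200 genes, 10% mitochondrial counts), thinning to 2000 UMIs per cell, equal weight per cell, centring on the median gene, subtraction of the B-cell level, and leaving out doublets, the top cell of each gene, the most abundant gene of each list or the 6 members high in S100a8 and S100a9. Scrublet was run through scanpy 1.11.5, intervals came from scipy 1.17.1, sums from numpy 2.4.6 and pandas 2.3.3 under Python 3.11.15, and figures from matplotlib 3.10.9.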

Additional observations from a re-analysis of the deposited data

How the results depend on the processing

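Of 513 recomputed values, 371 were counted as the same, 122 moved and 20 changed sign. Values counted as the same could still differ in size. Hist1h1b was 0.687 thinned against 1.11, inside its counting interval, and the genes higher were 84 with equal weight against 58. The 14 shares of kept cells all stayed within their counting intervals. Counts of genes past 2-fold depended on the gene minimum, with 206 higher and 171 lower at 20 UMIs and 9 and 10 at 200 UMIs. After thinning of each cell to 2000 UMIs, where 1186 genes reached the minimum, the counts were 5 and 15. With equal weight per cell 84 genes were higher and 92 lower, and after subtraction of the B-cell level 467 were higher and 656 lower, a setting that by construction sets genes expressed in B cells near 0. Against monocytes the counts after thinning were 186 and 199, where fewer genes reached the minimum.

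MHC class II was 0.187 with C1q of at least 10 UMIs, -0.100 thinned, -0.0328 with equal weight, 0.163 without the top cell, 1.36 with B-cell subtraction and 0.468 without the top 5% of doublet scores. Complement was -0.284 thinned, -0.277 with equal weight and -0.522 without the top doublet scores. Glycolysis was -0.0932 thinned, -0.155 with equal weight and -0.723 with B-cell subtraction. Cell cycle was 0.175 without the 6 cells high in S100a8 and S100a9 and 0.274 with B-cell subtraction. Erythroblastic island genes turned to -0.0220 thinned and -0.109 without the top cell, chemoattractant receptors to 0.00192 and osteoclast genes to 0.0182 with equal weight. With B-cell subtraction iron genes turned to 0.0609, immediate-early genes to 0.409, transcription factors to 0.0271, and Retnlg and Slpi to 0.274. Immediate-early genes were 0.0578 without the top doublet scores. Without the 6 cells Chil3 turned to -1.23, Mmp8 to 0.696, Retnlg to 0.672 and Slpi to 0.0702, and without the top cell Chil3 to -1.22 and Camp to -2.59. Thinning gave 3.00% and 8.33% for Ccr2 cells and 27.1% for HFD Vsig4 cells, since cells had fewer molecules. Without the most abundant gene of each list, chosen as a setting after the data were seen, complement was -0.141, MHC class II 0.290 and glycolysis -0.228, and iron genes turned to 0.0246 and tissue-resident genes to -0.0511. The cause of the other shifts was not tested.

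No paired analysis was possible because each diet came as 1 matrix with no map from cells to mice. Genes with few UMIs were not resolved at this depth.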

Other observations

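In the ND matrix 3 barcodes met the C1q, myeloid, collagen and Cd79a conditions but lay outside the limits on genes or mitochondrial counts, and 0 did in the HFD matrix. Kept cells with 1 to 4 C1q UMIs numbered 343 in the ND library and 270 in the HFD library, and 5572 and 5854 had none.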
